A study of Homo sapiens with 6 samples.

Results

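The 10 genes described here are the cyclin-dependent kinase (CDK) inhibitors and the RB family, taken by symbol from the 57133 symbols of the count table. They are the INK4 inhibitors CDKN2A, CDKN2B, CDKN2C and CDKN2D, the CIP/KIP inhibitors CDKN1A, CDKN1B and CDKN1C, and the pocket proteins RB1, RBL1 and RBL2. Each of the 10 had a row in the table, 8 passed the filter on low counts and were tested, and CDKN2C and CDKN1C did not pass it. RNA was sequenced from T98G, an established glioblastoma (GBM) cell line, after CRISPR knockout of CBX8. The CBX8 KO group (3 libraries) carried the empty doxycycline-inducible vector. The WT CBX8 re-expression group (3 libraries) carried the same vector with V5-tagged WT CBX8. Both groups shared the sgCBX8 knockout, selection with puromycin and hygromycin, and doxycycline at 1 μg/ml for 72 h. The sources used here do not say whether the knockout line is 1 clone or whether libraries of a group came from separate cultures. P-values therefore measure the spread between libraries, and the 2 stable lines and the effect of CBX8 cannot be told apart. One label field gives the re-expression cells a wild-type genotype, and the group was taken from the sample titles.

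INK4 proteins bind CDK4 and CDK6 and block their pairing with D-type cyclins, whereas CIP/KIP proteins bind complexes of several cyclins and CDKs. Active CDKs phosphorylate RB1, RBL1 and RBL2, which release E2F transcription factors and allow entry into S phase. The CDKN2A locus encodes 2 proteins from separate first exons, the CDK inhibitor p16INK4a and the MDM2 inhibitor p14ARF. In fibroblasts it is a textbook target of Polycomb repression, with CBX8 among the proteins bound there, and the comparison below asks whether the locus and its relatives responded to CBX8 in T98G cells.

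Total counts lay between 7950190 and 8659796 per library, and 1 count corresponded to between 0.114 and 0.128 CPM (counts scaled by the TMM-normalized library size). CBX8 itself reached 83 to 104 counts without re-expression and 27791 to 31408 upon re-expression, in the direction of the labels. This was a 297-fold rise, from the 34.0th to the 99.8th percentile of tested genes per kilobase of exon. No library came from cells without the knockout, so the level of CBX8 before it is not known here. The mesenchymal genes VIM, CD44 and FN1 were abundant, whereas GFAP had 13 to 30 counts, OLIG2 14 to 38 and NES 0 to 4 per library, and SOX2 and S100B had 0. The 8 tumor line markers summed to between 6026 and 6343 CPM in CBX8 KO and between 5746 and 6208 CPM upon re-expression. Of the 5 tumor line markers tested, edgeR called FN1 higher (log2 fold change 0.22, adjusted p = 0.00314) and CD44 lower (-0.21, adjusted p = 0.00967). None of the 5 overlapped between groups. Over all tested genes, 12.9% were called and 28.9% did not overlap. GFAP (0.68, adjusted p = 0.131) and OLIG2 (0.85, adjusted p = 0.0557) lay higher upon re-expression in all 3 libraries but did not pass. The part of these shifts in the results below was not tested. Of 8 markers of other cell types, none had more than 6 counts in a library, KRT5 had 0, and their sum was 0.95 to 1.15 CPM in CBX8 KO and 0.91 to 1.91 CPM upon re-expression. The cells of both groups were cycling, with 5454 to 6517 counts of TOP2A, and neither TOP2A (log2 fold change 0.03, edgeR adjusted p = 0.777) nor MKI67 (0.13, adjusted p = 0.176) passed the test. In bulk RNA, fewer cells that express a gene and less RNA per cell cannot be told apart.

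The 250 bases before the start site are shown for 3 of the genes, read 5′ to 3′ on the strand of the gene, from RefSeq (GRCh38.p14). The CDKN1A stretch (chr6:36678464-36678713, plus strand) is shown because CDKN1A changed, the RBL1 stretch (chr20:37095998-37096247, minus strand) because it holds E2F motifs, and both CDKN2A starts because the counts do not separate their products. The CDKN2A stretches are chr9:21995325-21995574 before the p14ARF first exon and chr9:21974858-21975107 before the p16INK4a first exon, both on the minus strand. Capitals mark the SP1 motif GGGCGG or the E2F motifs TTTCGCGC and TTTGGCGC, each searched on both strands with TATAAA.
CDKN1A: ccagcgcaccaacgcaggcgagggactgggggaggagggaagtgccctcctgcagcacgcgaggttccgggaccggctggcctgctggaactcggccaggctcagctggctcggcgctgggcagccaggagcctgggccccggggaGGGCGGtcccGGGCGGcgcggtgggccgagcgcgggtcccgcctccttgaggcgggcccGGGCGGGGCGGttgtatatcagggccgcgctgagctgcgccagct
RBL1: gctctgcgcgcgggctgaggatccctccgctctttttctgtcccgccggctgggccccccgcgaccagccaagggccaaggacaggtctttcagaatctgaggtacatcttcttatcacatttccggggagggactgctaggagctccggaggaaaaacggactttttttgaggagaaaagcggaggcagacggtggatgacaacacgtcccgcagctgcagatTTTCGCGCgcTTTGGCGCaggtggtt
CDKN2A, p14ARF start: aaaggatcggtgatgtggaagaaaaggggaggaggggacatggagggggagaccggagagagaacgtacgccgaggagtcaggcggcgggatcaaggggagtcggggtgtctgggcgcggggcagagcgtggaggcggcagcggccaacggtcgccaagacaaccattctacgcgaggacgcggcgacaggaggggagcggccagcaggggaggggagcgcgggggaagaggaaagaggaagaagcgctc
CDKN2A, p16INK4a start: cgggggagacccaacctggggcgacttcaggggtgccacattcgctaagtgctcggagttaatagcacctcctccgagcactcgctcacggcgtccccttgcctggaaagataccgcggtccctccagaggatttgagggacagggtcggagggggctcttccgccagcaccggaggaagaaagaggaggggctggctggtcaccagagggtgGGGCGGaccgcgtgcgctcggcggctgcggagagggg
CDKN1A holds 4 GGGCGG motifs, 2 of which overlap. Upstream stretches of the same length hold at least 1 GGGCGG in 42.6% of 35116 start sites, and 7 of 13 start sites of the 9 genes found in the RefSeq table hold it. RBL1 holds 2 E2F motifs, 26 and 16 bases before the start. None of the other 12 start sites holds an E2F motif, and 0.968% of all start sites hold at least 1. TATAAA was absent from all 13 and present in 10.7% of all. CDKN1C had no entry. The only RB1 stretch (chr13:48476200-48476449) lies inside the gene, which begins at 48303744. The stretches of CDKN1A, CDKN1B and RBL2 also lie inside their genes as annotated, which begin at 36676460, 12685498 and 53433977. That of CDKN2D lies partly inside. The bases before the annotated starts of RB1, CDKN1A, CDKN1B and RBL2 were therefore not searched. These letters are a description of the sequence and were not tested against the counts.

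Of the inhibitors, CDKN1A rose upon WT CBX8 re-expression and the others did not pass the test. CDKN1A (ENSG00000124762.14, chr6:36676460-36687337, plus strand) encodes p21, which inhibits cyclin-CDK2 complexes. Replicates 1 to 3 of CBX8 KO held 120, 113 and 127 counts and those of re-expression held 239, 246 and 232. In CPM these were 15.2, 13.4 and 16.3 against 28.1, 28.1 and 27.6. All 3 re-expression libraries lay above all 3 CBX8 KO libraries, and they also lay close together, with 27.9 ± 0.28 CPM (SD, n = 3) against 14.9 ± 1.43 (SD, n = 3). This is a 1.87-fold rise, or 0.90 on the log2 scale (standard error, SE, 0.10; 95% interval 0.70 to 1.11; edgeR quasi-likelihood adjusted p = 3.59e-07). It passed the threshold of FDR < 0.05 under all 16 alternatives, with log2 fold changes between 0.83 and 0.97. DINOL, an antisense gene annotated over 146 bases of CDKN1A exons, had 0 counts in all libraries.

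CDKN1A was thus 1 of 8 tested genes called (12.5%), beside 12.9% of all 14461 tested genes. It was also the 1 gene of the 8 with no overlap between conditions, beside 28.9% of all tested genes. The share of calls among the 8 is therefore near the background. The call was 1 higher, where 6.23% of all tested genes were called higher. None of the 8 was called lower by edgeR, where 6.63% of all tested genes were, and none was lower at an unadjusted p under 0.05, with DESeq2 or with limma voom. At an unadjusted p under 0.05, 2 were higher, CDKN1A and CDKN2D. The share of all tested genes at that p is not given here, so this count adds nothing to the result for CDKN2D. Over all tested genes 901 were called higher and 959 lower, or 1400 and 592 when scaled by library size only.

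**Figure D1:**
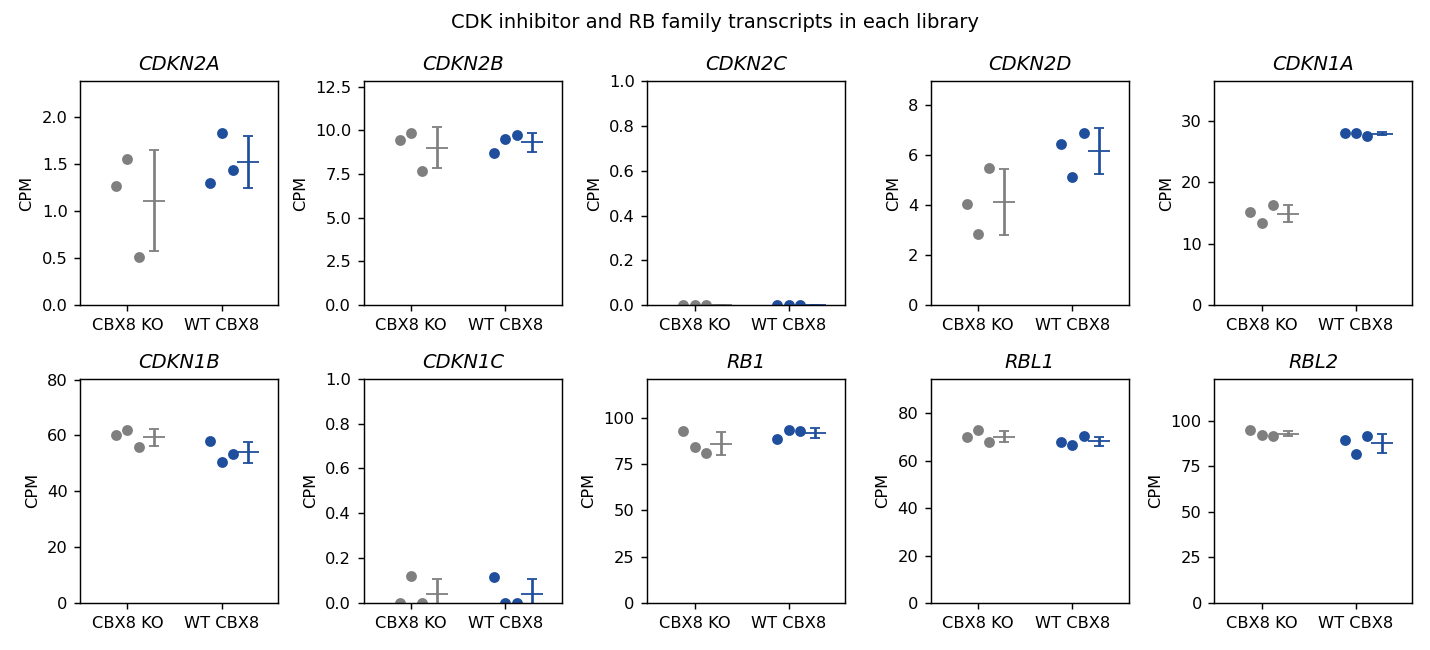
CPM of each of the 10 genes in the 6 libraries, with CBX8 KO in grey and WT CBX8 re-expression in blue. Points are libraries, and the bar to their right is the mean with its SD (n = 3). Each axis starts at 0 and has its own scale. CDKN1A is the 1 gene whose groups separate, at 13.4 to 16.3 against 27.6 to 28.1 CPM.

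The 3 genes whose log2 CPM followed CDKN1A most closely over the 6 libraries, of 10393 compared, were QSOX1, CSRP1 and TNK2. Their Pearson r was 0.9987 for QSOX1, 0.9966 for CSRP1 and 0.9945 for TNK2. With 3 libraries in each of 2 groups, such values mostly describe the gap between groups, and the libraries share their depth and scaling. QSOX1, a secreted sulfhydryl oxidase, had 693 to 714 counts in CBX8 KO and 966 to 1003 upon re-expression. Its log2 fold change was 0.39, smaller than that of CDKN1A.

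Of the other CIP/KIP inhibitors, CDKN1B did not pass the test and CDKN1C could not be tested. CDKN1B (ENSG00000111276.12, chr12:12685498-12722369, plus strand) encodes p27, which holds CDK2 inactive in resting cells. It had 60.1, 61.8 and 55.9 CPM in CBX8 KO and 58.1, 50.6 and 53.2 CPM upon re-expression. The groups overlapped, and the log2 fold change was -0.14 (SE 0.07, 95% interval -0.28 to 0.0059, edgeR adjusted p = 0.22).

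CDKN1C (ENSG00000129757.15, chr11:2883213-2885775, minus strand) encodes p57, the product of an imprinted gene. It had 1 count in CBX8 KO replicate 2, 1 count in re-expression replicate 1 and 0 in the other 4 libraries, so no fold is given. Its canonical transcript matched an alternate contig of hg38 over 99.8% of its bases. Reads that fit both places may have been left out of the counts, which was not tested, and the near absence of counts does not show that the gene is silent. No other gene of the 10 had such a copy.

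CDKN2A was barely detected, and re-expression of CBX8 did not change it beyond the spread between libraries. CDKN2A (ENSG00000147889.18, chr9:21967752-21995301, minus strand) was counted 10, 13 and 4 times without CBX8 and 11, 16 and 12 times with WT CBX8. These are 1.26, 1.54 and 0.51 CPM against 1.29, 1.83 and 1.43 CPM, and the groups overlapped. The log2 fold change was 0.44 (SE 0.39, 95% interval -0.37 to 1.25, edgeR adjusted p = 0.534). The interval includes a 2-fold rise and does not include a 2-fold fall. With 1 library left out, the log2 fold change ranged from 0.11 without CBX8 KO replicate 3, which had 4 counts, to 0.76 without CBX8 KO replicate 2, which had 13. Per kilobase of exon, CDKN2A lay at the 3.34th percentile of tested genes in CBX8 KO and at the 4.74th upon re-expression. The few counts are also uncertain in origin, since exons of the antisense RNA CDKN2B-AS1 (20 to 28 counts per library) cover 593 of its 3885 exonic bases and the strand setting of the counting is not given. Counts per gene do not separate p16INK4a from p14ARF. Nor do they show whether the DNA of CDKN2A is intact, which was not tested. The interval above therefore describes these counts and not the repression of an intact locus.

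CDKN2B (ENSG00000147883.12, chr9:22002903-22009305, minus strand), the adjacent gene for p15INK4b, was expressed at a higher level than CDKN2A. It had 75, 83 and 60 counts in CBX8 KO and 74, 83 and 82 upon re-expression. In CPM these are 9.47, 9.86 and 7.68 against 8.70, 9.48 and 9.76, and the groups overlapped. The fitted difference was 0.05 on the log2 scale (SE 0.14, 95% interval -0.25 to 0.34, edgeR adjusted p = 0.883).

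The genes around CDKN2A were not silent as a block. MTAP, the methylthioadenosine phosphorylase gene 30.1 kb away, had 438 to 542 counts, and KLHL9 had 325 to 421. Of 71 deposited symbols within 3 Mb of CDKN2A, itself included, 35 had no count in any library and 15 had at least 10 counts in every library. Interferon genes made up most of the 15 protein-coding genes at 0. Of the 16 of these symbols that were tested, edgeR called 0 (beside 12.9% of all tested genes), as did DESeq2 and limma voom. With edgeR, 4 had an unadjusted p under 0.05, and the share of all tested genes at that p is not given here. These were MTAP, HAUS6 (-0.13), RPS6 (-0.12) and MLLT3 (-0.27), all lower upon re-expression. MTAP came nearest, at -0.20 (edgeR adjusted p = 0.0524).

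**Figure D2:**
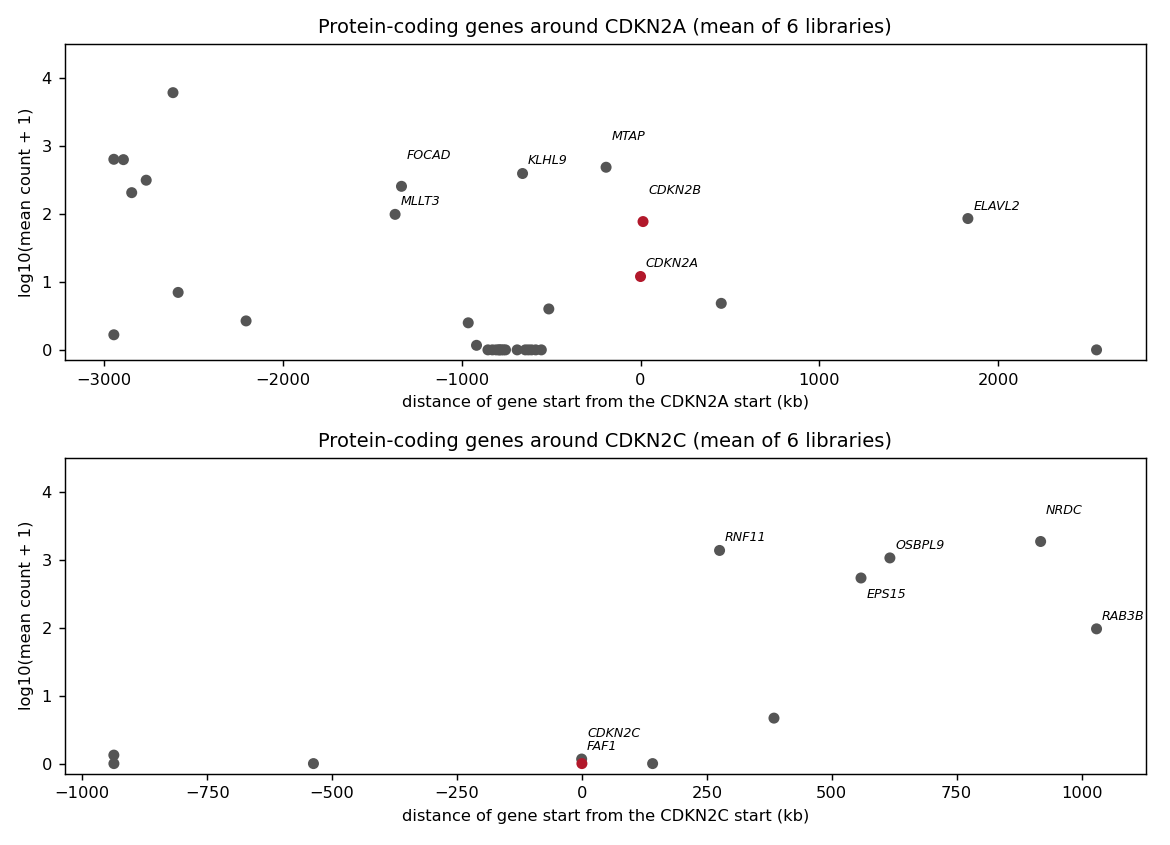
Mean count over the 6 libraries, as log10(mean + 1), of protein-coding genes within 3 Mb of CDKN2A (upper panel) and 1 Mb of CDKN2C (lower panel), by distance of gene starts in kb. Genes of the CDK inhibitor list are red. CDKN2A and CDKN2B lie between expressed genes, and CDKN2C and FAF1 lie at 0 and at most 1 count among further genes without counts.

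CDKN2C (ENSG00000123080.12, chr1:50960745-50974634, plus strand) encodes p18INK4c, another inhibitor of CDK4 and CDK6. It had 0 counts in all 6 libraries, which allows up to 0.384 CPM in the shallowest and 0.343 CPM in the deepest, for counting error only. The neighbouring genes, looked at after this was seen, were without counts too. FAF1, a FAS-associated factor gene that is widely expressed in human tissues and starts 0.5 kb from CDKN2C, had 1 count in 1 library and 0 in the other 5. The nearest genes with at least 10 counts in every library were SPATA6 (48 to 68 counts), 2488.5 kb to the left, and RNF11 (1236 to 1487 counts), 261.6 kb to the right. Of 19 deposited symbols between them, 14 had no count and none had more than 1 in a library. These include 7 protein-coding genes, of which 5 were at 0 (BEND5, ELAVL4, DMRTA2, CDKN2C and C1orf185) and AGBL4 and FAF1 had 1 count at most. Gaps at least this long between expressed genes made up 1.18% of 9674 gaps over the autosomes and chromosome X. Neither CDKN2C nor FAF1 matched an alternate contig over 95% or more of its transcript. Counts of RNA do not show whether the DNA is present, which was not tested.

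CDKN2D (ENSG00000129355.7, chr19:10566460-10569059, minus strand), the gene for p19INK4d, came closest to a second call. Counts were 32, 24 and 43 in CBX8 KO and 55, 45 and 58 upon re-expression, or 4.04, 2.85 and 5.50 against 6.47, 5.14 and 6.91 CPM. CBX8 KO replicate 3 lay above re-expression replicate 2 in CPM, so the groups overlapped. The log2 fold change of 0.58 (SE 0.22, 95% interval 0.14 to 1.03) had an edgeR adjusted p of 0.08. Over the alternatives the adjusted p lay between 0.0204 and 0.375, and only the fit without CBX8 KO replicate 3 passed, with a log2 fold change of 0.84. Without CBX8 KO replicate 2 the log2 fold change was 0.37.

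**Figure D3:**
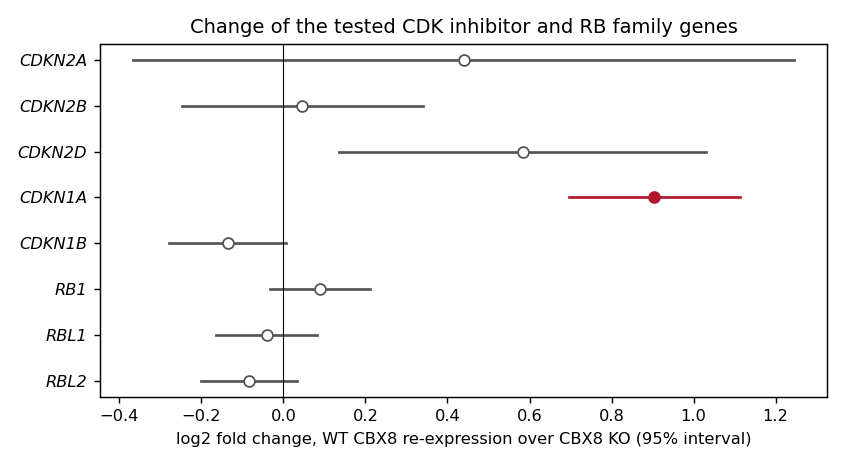
Log2 fold change of WT CBX8 re-expression over CBX8 KO with its 95% interval from edgeR's quasi-likelihood fit, for the 8 tested genes. The filled red point is past FDR < 0.05 and open points are not. CDKN1A lies at 0.90 and the intervals of RB1, RBL1 and RBL2 all include 0.

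The 3 pocket protein genes were expressed at similar levels in both groups. RB1 (ENSG00000139687.16, chr13:48303744-48599436, plus strand), the retinoblastoma tumor suppressor that binds activating E2Fs, had 93.0, 84.2 and 81.1 CPM in CBX8 KO and 88.5, 93.2 and 93.1 CPM upon re-expression. Its log2 fold change was 0.09 (SE 0.06, 95% interval -0.03 to 0.21, edgeR adjusted p = 0.376). RBL1 (ENSG00000080839.12, chr20:36996349-37095997, minus strand) encodes p107, which binds repressive E2Fs and is itself an E2F target. It had 70.1, 72.8 and 68.0 CPM against 67.8, 66.7 and 70.5 CPM. RBL2 (ENSG00000103479.17, chr16:53433977-53491648, plus strand) encodes p130, the pocket protein of the DREAM complex in resting cells. It had 94.7, 92.3 and 91.8 CPM against 89.3, 81.9 and 91.8 CPM. The groups overlapped for all 3 genes. The log2 fold change was -0.04 (95% interval -0.16 to 0.08, edgeR adjusted p = 0.727) for RBL1 and -0.08 (95% interval -0.20 to 0.03, adjusted p = 0.389) for RBL2. These intervals reach at most 0.21 log2 units from 0 and are narrower than those of the low INK4 genes. Exons of RBL2 share 609 bases with AKTIP on the opposite strand, and how those reads were assigned is not known.

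Compared as levels per kilobase of exon, the pocket proteins lay above the inhibitors. In CBX8 KO the order was RB1 (13.4 ± 0.96 CPM per kb), RBL1 (11.8 ± 0.41), RBL2 (11.5 ± 0.19), CDKN1B (6.40 ± 0.33), CDKN1A (4.99 ± 0.48), CDKN2D (2.75 ± 0.88), CDKN2B (2.25 ± 0.29) and CDKN2A (0.28 ± 0.14; SD, n = 3 each). The library ranges of RBL1 and RBL2 overlapped, as did those of CDKN2D and CDKN2B, and the other neighbours in this order did not. Upon re-expression CDKN1A, at 9.33 ± 0.09 CPM per kb, stood above CDKN1B, at 5.83 ± 0.41, with no overlap. The order of the other genes was the same, and the ranges of RBL1 and RBL2 overlapped again. In CPM not divided by length, CDKN1A lay below CDKN1B upon re-expression (27.9 against 54.0). CDKN1A moved from the 48.1th to the 65.1th percentile of tested genes. The lengths are those of all annotated exons and not of the transcripts used, so order among genes is approximate. The place of CDKN1B depends on a length of 9.255 kb, and with a shorter one it would lie higher, against CDKN1A and the pocket proteins alike.

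The 5 lists of genes around the inhibitors held 71 genes, of which 67 were tested. Of these, 2 were called higher and 13 lower, or 2 and 4 when scaled by library size only. Over all tested genes, 6.23% were called higher and 6.63% lower, or 12.9% in either direction. The counts of each list below stand beside these shares, which cover genes of all levels and were not matched to the lists. Counts at an unadjusted p have no such share here. The median log2 fold change of all tested genes was 0.0049.

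The cyclin and CDK list (13 of 16 genes tested) had 1 gene called higher and 2 lower (23.1% called), with a median of -0.09. CCND1, the D-type cyclin that activates CDK4 and CDK6, rose from 256 ± 13.0 to 300 ± 14.6 CPM (SD, n = 3 each; log2 fold change 0.23, edgeR adjusted p = 0.00295). CCND3 (-0.16, adjusted p = 0.0371) and CDK4 (-0.14, adjusted p = 0.0453) were called lower, each in 7 of 16 alternatives only. The kinases CDK6 (-0.0033, 95% interval -0.14 to 0.13) and CDK2 (-0.09, 95% interval -0.20 to 0.02) did not pass the test. CCND2 was almost undetected, with a single read in re-expression replicate 1. CDK7 had 33 counts in CBX8 KO replicate 2 and at most 3 elsewhere, and its transcript is fully matched on an alternate contig.

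Of the E2F and DP factors (10 of 11 tested), 0 were called higher by edgeR, by DESeq2, by limma voom or at an unadjusted p under 0.05, and 2 of the 10 were called lower (beside 6.63% of all tested genes). These were E2F5 (-0.29, edgeR adjusted p = 0.0264) and E2F4 (-0.17, adjusted p = 0.0283), the repressive E2Fs that pair with RBL1 and RBL2. E2F5 was called in 9 and E2F4 in 10 of 16 alternatives, and neither was called by DESeq2. E2F1, the activator bound by RB1, had a log2 fold change of 0.08 (95% interval -0.04 to 0.19, edgeR adjusted p = 0.411). In the list of MuvB, MYB and FOXM1 partners (8 tested), MYBL1, a MYB family factor, was called higher (0.29, adjusted p = 0.00267) and 0 were called lower by edgeR, DESeq2 or limma voom, with 1 lower at an unadjusted p under 0.05.

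Among 20 E2F target genes of DNA synthesis, 6 were called lower by edgeR (30.0%, beside 6.63% of all tested genes) and 0 higher. DESeq2 called 4 lower and limma voom 6, and 0 were higher by either or at an unadjusted p under 0.05. The changes were small, and the median was -0.08. The 5 largest were ORC1 (-0.30), PCNA (-0.21), MCM4 (-0.20), MCM7 (-0.17) and CDC6 (-0.17), which load or carry out replication. Called under all 16 alternatives were ORC1, PCNA and MCM4. PCNA, the sliding clamp that p21 also binds, went from 360 ± 19.0 to 312 ± 9.72 CPM (SD, n = 3 each; edgeR adjusted p = 0.0055).

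A list of 16 genes covered transcription of CIP/KIP inhibitors and protein turnover by ubiquitin ligases, whose parts also act on other proteins. Of the 16, 3 were called lower (18.8%, beside 6.63% of all tested genes) and 0 higher. DESeq2 called 1 lower and limma voom 4, and 0 were higher by either or at an unadjusted p under 0.05. MYC, known to repress CDKN1A transcription, had the largest change. It had 901, 957 and 850 counts in CBX8 KO and 631, 666 and 655 upon re-expression, with no overlap. Its log2 fold change was -0.56 (SE 0.05, edgeR adjusted p = 3.47e-08), and it was called under all 16 alternatives. FBXW7 (-0.35, adjusted p = 0.026) and DTL (-0.17, adjusted p = 0.0365), substrate receptors of ubiquitin ligases, were called lower in 10 and 7 alternatives. SKP2, the ligase subunit that targets p27, had a log2 fold change of -0.0036 (95% interval -0.12 to 0.11). Whether any of these changes bears on CDKN1A was not tested.

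**Figure D4:**
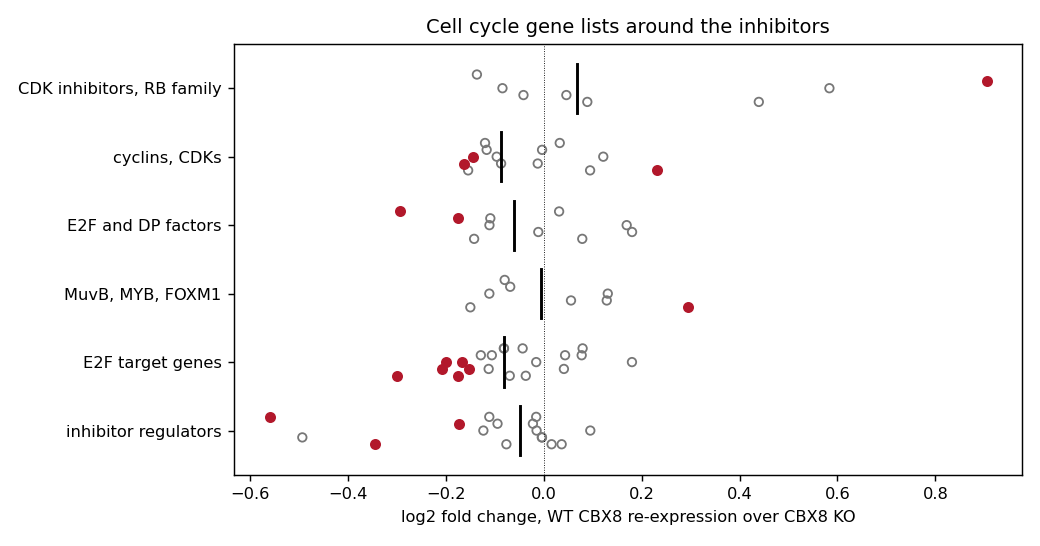
Log2 fold change of WT CBX8 re-expression over CBX8 KO for tested genes of the 10-gene list and of the 5 lists around it. Filled red points are past FDR < 0.05 in edgeR's fit, open points are not, and the black bar is the median of a list. CDKN1A, at 0.90, lies farthest right of all points, and the 6 called E2F target genes lie between -0.30 and -0.15.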

How the data were processed

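Reads of poly(A) RNA were 100 bp long and paired. The authors trimmed adapters with Trimmomatic, aligned reads to hg38 with HiSat2 on Galaxy, and deposited whole-number counts for each symbol, not normalized. The counting program, its annotation and strand setting are not given in the sources used here. PCR reads carried no molecular identifiers, so limits from depth cover counting error only.

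Low counts were removed with filterByExpr in edgeR 4.0.16 under R 4.3.3, which left 14461 genes. These were scaled by TMM and tested with glmQLFit and glmQLFTest (condition as the only term, legacy default). Benjamini-Hochberg adjustment ran over all tested genes, with FDR < 0.05 as the threshold. Standard errors were derived from the log2 fold change and the F statistic (|log2 fold change| / √F), and 95% intervals use the t distribution at the total degrees of freedom of the fit. The test was run on simulated counts with known changes, drawn with the dispersions fitted to these data. This checks the code and cannot show whether the model holds for these libraries. DESeq2 1.42.0 and limma 3.58.1 were alternatives, with other scalings and filters, a replicate block, and fits without each library. Positions and exon lengths came from GENCODE release 44, with a length for 87.8% of tested genes. Transcripts were matched to alternate contigs with minimap2 2.31 (at least 95% of bases).

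Named were CBX8, the 10 genes, up to 5 called genes per list with the largest change, genes near CDKN2A, direct partners of the inhibitors, and the 3 genes most like the most changed one (Pearson r of log2(CPM + 0.5), average log2 CPM of at least 3). Named outside this rule, after their values were seen, were genes around CDKN2C, genes that overlap members, CCND2, CDK7 and SKP2. One gene and one further list drawn up with the others are not reported here. The members and lists were chosen with earlier results of these data known.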

Additional observations from a re-analysis of the deposited data

How the results depend on the processing

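CBX8 kept its direction and call under all 16 alternatives. Of 128 fits of the 8 tested genes, 125 kept direction and side of the threshold. CDKN2D passed without CBX8 KO replicate 3, which made 2 genes called higher, so that the number called higher ranged from 1 to 2 with 1 library left out. Reversed were CDKN2B without CBX8 KO replicate 3 (-0.055, against up to 0.1179 with other libraries left out) and RBL1 with library size only (0.014), neither near the threshold.

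The 13 genes of the surrounding lists called lower became 4 with library size only, 5 with DESeq2, 4 with the replicate number as a block, and 5 to 9 with 1 library left out, lowest without CBX8 KO replicate 3. Of the 15 genes called in these lists, 6 were called in every alternative. The 901 genes called higher over all genes became 1400 with library size only and 502 with DESeq2, and the 959 lower became 592 with library size only. With 1 library left out they ranged from 593 to 792 higher and from 635 to 851 lower, lowest without WT CBX8 re-expression replicate 2. The cause of these shifts was not tested. Libraries with the same number did not deviate together (correlations of -0.144, -0.182 and -0.115 over 10353 genes). The replicate number is therefore not read as a pairing, and other pairings across the groups were not tested. At 4 to 16 counts of CDKN2A per library, depth limits what can be said of it.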
